A study of Mus musculus with 6 samples.

Results

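The genes described here are 37 genes of programmed cell death: p53 and its inhibitors, genes that p53 switches on, the Bcl2 family, caspases with their activators and inhibitors, and the death receptor arm. They were chosen by name, with earlier results of these data known. Every array probe whose RefSeq accession maps to one of them was taken. That gave 48 of the 55681 non-control probes and 37 of the 20145 named genes. RNA came from cells of the cerebral neocortex of C57BL/6N mouse embryos, labelled as neural progenitor cells, and was measured on 6 one-colour arrays. The dams of the 3 control samples received saline. Those of the 3 exposed samples received phenobarbital, a barbiturate and positive modulator of GABA-A receptors, at 80 mg/kg from a solution of 8 mg/mL. Both groups got intraperitoneal injections spaced by 6 h on days 10 to 11 of gestation. The cortices of day 12 embryos (E12.5 in the sample labels) were dissociated and plated, and RNA was isolated 4 h after plating. No genetic alteration is named for either group. The labels do not say whether replicates came from separate litters or cultures, or how many embryos were pooled, so the p-values speak only to how far these samples differ among themselves, a spread that may be technical.

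In the mitochondrial pathway of apoptosis, BH3-only proteins activate Bax and Bak1 or release them from inhibition, and these open the outer mitochondrial membrane. Cytochrome c then leaves the mitochondria and joins Apaf1 and caspase-9 in the apoptosome, which starts the caspase cascade, while Bcl2 and its pro-survival relatives hold Bax and Bak1 in check. The transcription factor p53 drives several BH3-only genes, cell cycle brakes and its own inhibitor Mdm2, and its activity is set largely by the stability of the protein. In the embryonic cortex, progenitors and newborn neurons are known to die by this route after DNA damage.

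Of the 37 genes, 36 had at least 1 probe that could be tested, 46 probes in all. Both probes of Eda2r, a TNF receptor family member induced by p53, failed the filter on dim signals: 1 was not well above background on any array, and the other was so on control replicate 2 alone. The 46 tested probes were well above background on all 6 arrays. Levels are log2 signal minus the 75th percentile of the same array, so a level of 0 lies at that percentile. A log2 fold change is the phenobarbital mean less the control mean, printed ± its standard error (SE) from limma, and a probe was called at a Benjamini-Hochberg adjusted p below 0.05. The lead probe of a gene is its brightest tested probe.

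By lead probe, 1 of the 36 genes rose (Trp53), 4 fell (Mdm2, Gadd45a, Bbc3 and Bmf) and 31 did not pass. The called share was 13.9%, against 16.1% of the lead probes of all 25304 names tested, of which 6.00% were called higher and 10.1% lower. Counting every probe, 2 rose, 5 fell and 39 did not pass, or 15.2% called against 16.2% of all 34673 probes (6.97% higher and 9.24% lower). The share of called genes was thus close to the background. The median log2 fold change of the 36 lead probes was -0.21, beside -0.17 for all lead probes and -0.15 for all probes. Groups did not overlap for 17 of the 36 genes (47.2%), 5 of them with phenobarbital higher and 12 lower. The same held for 44.5% of all lead probes, 11.6% with phenobarbital higher and 32.9% lower. The log2 fold change was negative for 25 of the 36 genes, and for 20 after quantile normalization.

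**Figure D1:**
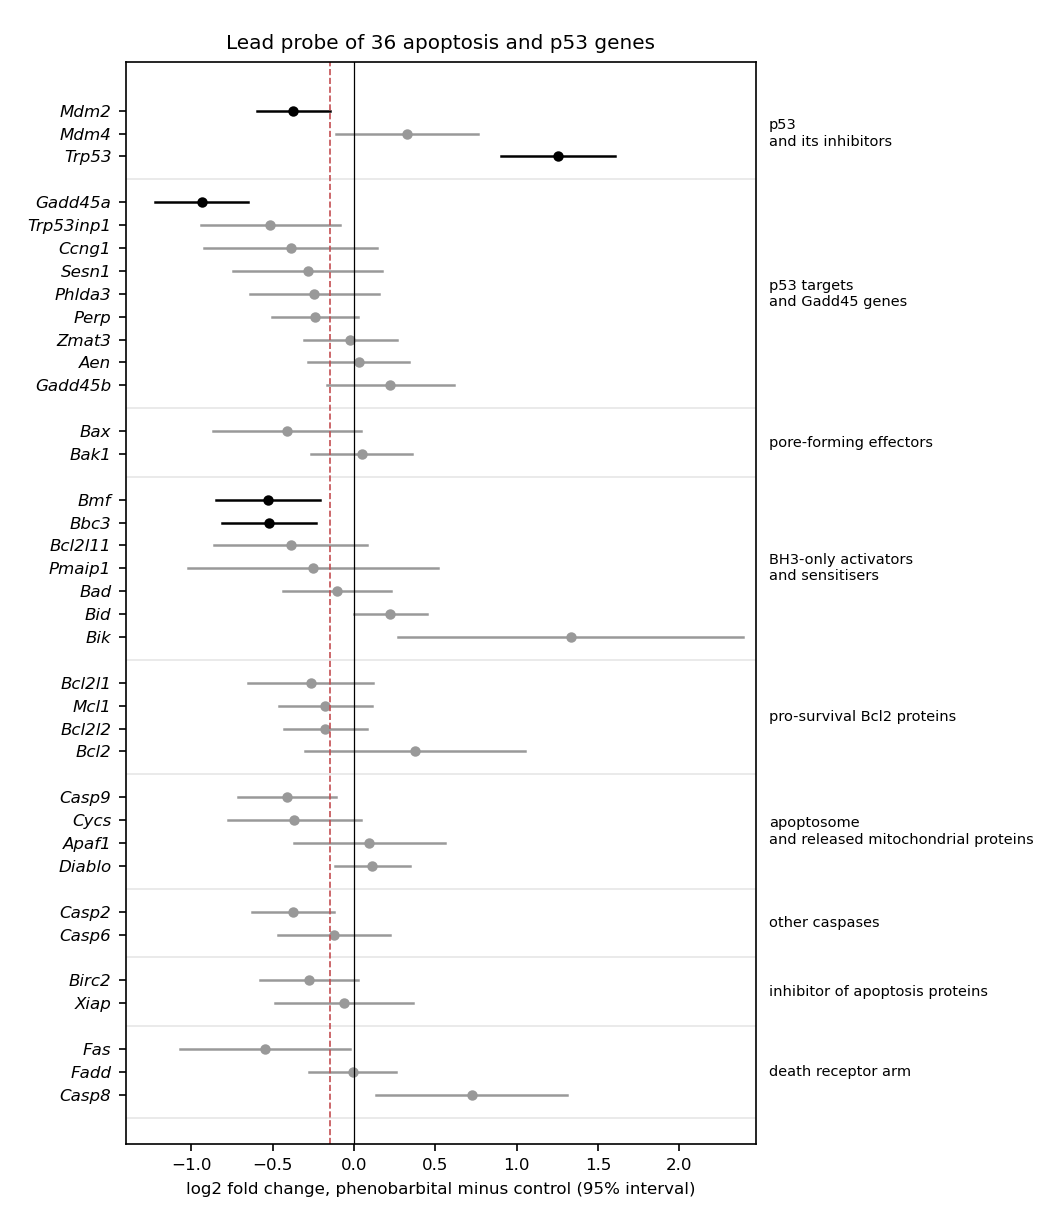
Log2 fold change (phenobarbital minus control, n = 3 arrays per group) of the lead probe of each of the 36 tested genes on the horizontal axis, grouped by role, with 95% intervals of the fit. Black marks the 5 genes with an adjusted p below 0.05 and grey the 31 others, the solid line is 0 and the dashed line the median of all probes (-0.15); Trp53 stands to the right at 1.25 and Gadd45a has the lowest value, -0.93.

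The promoters of the 5 genes called by lead probe are shown. Each window runs from 250 bases before to 50 after the transcription start and comes from RefSeq on GRCm38.p6. It is written 5′ to 3′ on the gene's strand, and for Bbc3 and Bmf it is the first of 3 starts listed. Capitals mark matches on either strand to the p53 half-site, to the CCAAT box, to the GC box read as GGGCGG, or to the TATA box read as TATAAA. Overlapping matches were counted separately.
Trp53, chr11:69580109-69580408, plus strand: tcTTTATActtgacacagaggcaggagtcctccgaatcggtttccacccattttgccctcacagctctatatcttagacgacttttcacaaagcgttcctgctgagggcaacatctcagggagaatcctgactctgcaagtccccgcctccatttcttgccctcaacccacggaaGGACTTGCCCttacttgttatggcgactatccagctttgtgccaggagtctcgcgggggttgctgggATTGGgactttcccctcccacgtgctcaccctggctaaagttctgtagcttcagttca
Mdm2, chr10:117710709-117711008, minus strand: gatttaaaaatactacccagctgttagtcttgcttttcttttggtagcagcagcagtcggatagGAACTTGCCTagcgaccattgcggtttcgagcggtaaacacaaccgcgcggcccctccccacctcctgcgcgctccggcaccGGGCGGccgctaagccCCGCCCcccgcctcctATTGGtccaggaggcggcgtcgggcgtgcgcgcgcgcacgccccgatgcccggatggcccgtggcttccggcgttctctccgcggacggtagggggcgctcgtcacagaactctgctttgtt
Gadd45a, chr6:67037358-67037657, minus strand: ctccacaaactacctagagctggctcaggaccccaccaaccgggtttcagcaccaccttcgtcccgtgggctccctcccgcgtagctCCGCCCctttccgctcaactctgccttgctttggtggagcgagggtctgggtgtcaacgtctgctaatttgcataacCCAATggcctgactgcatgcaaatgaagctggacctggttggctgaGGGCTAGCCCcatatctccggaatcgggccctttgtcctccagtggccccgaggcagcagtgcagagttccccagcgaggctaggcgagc
Bbc3, chr7:16309333-16309632, plus strand: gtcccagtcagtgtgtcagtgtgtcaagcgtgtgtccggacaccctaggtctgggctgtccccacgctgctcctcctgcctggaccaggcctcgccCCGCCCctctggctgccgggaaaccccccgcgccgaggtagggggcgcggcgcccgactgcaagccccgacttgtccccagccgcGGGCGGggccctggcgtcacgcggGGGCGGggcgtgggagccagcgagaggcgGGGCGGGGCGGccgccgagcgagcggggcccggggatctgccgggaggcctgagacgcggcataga
Bmf, chr2:118544538-118544837, minus strand: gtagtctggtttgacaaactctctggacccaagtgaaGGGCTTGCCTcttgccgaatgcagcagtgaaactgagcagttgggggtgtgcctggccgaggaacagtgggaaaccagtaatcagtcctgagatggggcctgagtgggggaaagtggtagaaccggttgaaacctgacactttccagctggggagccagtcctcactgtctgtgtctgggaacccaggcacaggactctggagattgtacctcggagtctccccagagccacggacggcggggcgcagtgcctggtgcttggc

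A p53 half-site stands in the windows of Trp53, Mdm2, Gadd45a and Bmf, 1 in each, and 0 were found in the Bbc3 window, which holds 5 GC box matches. The windows of the other two Bmf starts hold 0 half-sites, as do those of the other two Bbc3 starts. Over all 32851 promoter windows 8.36% hold the half-site, 37.4% the CCAAT box, 35.7% the GC box and 13.6% the TATA box. The table matched 32 of the 37 genes with 46 windows, and the half-site lay in 10 of those windows (21.7%), those of 9 genes with the half-site at 1 start or more: Aen, Bax, Birc2, Bmf, Ccng1, Gadd45a, Mdm2, Sesn1 and Trp53. Of these 9, Trp53 rose, Mdm2, Gadd45a and Bmf fell, and 5 did not pass. The called share was 13.9% over the members and 16.1% over all lead probes. Whether calls go with the half-site was not tested. Among the 46 windows 45.7% hold the CCAAT box, 67.4% the GC box and 8.70% the TATA box. A match is a description of the letters and shows no binding. Trp53inp1, Zmat3, Perp, Pmaip1 and Bik were not matched.

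The arrays set limits on every value. Control replicate 1 and all 3 phenobarbital arrays shared slide 1, while control replicates 2 and 3 were on slides 2 and 3. Over the tested probes control replicates 1 and 3 had a Pearson correlation of 0.995. Control replicate 2 had 0.987 with control replicate 1 and 0.982 with control replicate 3. Control replicates 1 and 3 each had 0.987 with phenobarbital replicate 1. Without control replicate 2, 2795 of all probes were called higher and 3180 lower. Control arrays had a 75th percentile of signal of 1116 to 1291 and phenobarbital arrays 1803 to 1862 (two-sided p = 0.1 by an exact permutation test, the lowest possible with 3 arrays against 3). Across all probes 2415 were called higher and 3203 lower, so 43.0% of calls were higher. That share was 59.1% after quantile normalization, 62.7% after scaling to the median, 66.6% with the percentile over probes above background on all arrays and 25.6% with normexp background correction. With the slide as a block, which compares control replicate 1 with the phenobarbital arrays, Trp53 alone of the 36 lead probes passed, against 2.86% of all lead probes called (2.28% higher and 0.573% lower). In that fit 1 control array stands against 3 phenobarbital arrays, and no spread between controls enters its p-values. The members' median was then -0.15 and that of all probes -0.16.

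Marker lists of cell types were chosen with earlier results of these data known. Summed levels of the neuron, erythroid, choroid plexus, endothelial, and mural and meningeal lists did not overlap between groups. Those of the cortical progenitor list and of the microglia and macrophage list did. The 9 cortical progenitor markers had a summed level, in multiples of the array's 75th percentile, of 269 to 324 in controls and 245 to 308 with phenobarbital; Emx2 rose and 8 did not pass. Of 6 neuron markers 4 fell (150.3 to 171 against 102 to 117), as did 5 of 8 erythroid (936 to 1370 against 602 to 655), 4 of 7 endothelial (69.8 to 81.2 against 41.7 to 48.5) and 6 of 7 mural and meningeal markers (54.4 to 59.3 against 30.7 to 36.9). The endothelial marker Pecam1 had the opposite sign, at 0.70 ± 0.23, and did not pass (limma, adjusted p = 0.0805). Of 7 choroid plexus markers 6 were tested and 5 rose (1.88 to 4.08 against 11.7 to 22.8). Of 6 microglia and macrophage markers 3 fell and 1 rose (7.70 to 9.94 against 8.21 to 10.6). Over all lead probes 6.00% were called higher and 10.1% lower. With the slide as a block 2 erythroid markers (Alas2 and Slc4a1) were still called lower and 2 choroid plexus markers (Ttr and Folr1) higher, and 0 markers of the other lists were called. The libraries labelled as progenitors thus held signal of these other cell types in both groups. In bulk RNA, fewer cells of a type and less RNA per cell cannot be told apart, and the part of these markers in the results was not tested.

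Trp53, at the head of the pathway, encodes p53 and is read by 1 probe. Its level was -1.04, -0.92 and -0.66 on the arrays of control replicates 1 to 3, and for phenobarbital replicates 1 to 3 it was 0.36, 0.24 and 0.54. All 3 phenobarbital arrays lay above all 3 controls, with a gap wider than the range within either group. The control mean of Trp53, -0.87, was the lowest of the 5 called lead probes, and those that fell had 0.73 to 4.77. Whether log2 fold changes go with level was not tested. The signal of the Trp53 probe rose by 1.25 ± 0.15 log2 units (SE, n = 3 per group). That is 2.38-fold, with a 95% interval from 1.87 to 3.04 (adjusted p = 0.00618, limma). Within slide 1 the phenobarbital mean lay 1.42 above control replicate 1, and with the slide as a block the adjusted p was 0.0344. Trp53 passed under all 22 other settings run, with log2 fold changes of 1.17 to 1.42.

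Mdm2, the ubiquitin ligase that marks p53 for destruction and is itself a p53 target, had the opposite sign. Its level was 4.81, 4.75 and 4.75 in the controls and 4.42, 4.39 and 4.39 with phenobarbital, so the groups were narrow and apart. It fell by 0.37 ± 0.09 on the log2 scale, to 77.3% of the control level (limma, adjusted p = 0.0439). Relative to the median of all probes the log2 fold change was -0.22. Mdm2 passed under 7 of 22 other settings. It passed neither with the slide as a block (adjusted p = 0.213) nor with any 1 of the 6 arrays left out (adjusted p 0.0523 to 0.144). Mdm4, the relative of Mdm2 that covers p53's activation domain, had 0.33 ± 0.18 on its lead probe and -0.29 ± 0.11 on its dimmer probe, and neither passed (adjusted p = 0.244 and 0.126).

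Among the 9 tested genes of the p53 target and Gadd45 list, 1 fell (11.1%) and 8 did not pass. Over all lead probes 10.1% were called lower. The list's median log2 fold change was -0.24, beside -0.17 for all lead probes. Gadd45a, a stress gene induced by p53 and by DNA damage, had a level of 2.52, 2.64 and 2.34 in the controls and 1.56, 1.50 and 1.64 with phenobarbital. The groups were apart by more than the range within either. Gadd45a fell by 0.93 ± 0.12 on the log2 scale, to 52.3% of the control level (limma, adjusted p = 0.00768), and its log2 fold change relative to the median of all probes was -0.79. The difference within slide 1 was -0.95. The fall passed under 20 of 22 other settings, and with the slide as a block the adjusted p was 0.0530. Gadd45b, its relative, had 0.22 ± 0.16 and did not pass (adjusted p = 0.360).

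The other p53 targets of that list did not pass. Trp53inp1, a nuclear partner of p53, came nearest, with levels of 1.06, 1.45 and 0.99 in the controls against 0.53, 0.52 and 0.91. Its groups did not overlap, but phenobarbital replicate 3 lay close to the controls (log2 fold change -0.51 ± 0.18, adjusted p = 0.0930; -0.09 ± 0.16 on its dimmer probe). For Ccng1, which encodes cyclin G1, the log2 fold change was -0.39 ± 0.22, and for Sesn1, a sestrin that restrains mTOR signalling, -0.28 ± 0.19. Phlda3, a repressor of Akt, had -0.24 ± 0.17, and Perp, a membrane protein of desmosomes, -0.24 ± 0.11. The RNA-binding protein gene Zmat3 and the nuclease gene Aen lay near 0, at -0.02 ± 0.12 and 0.03 ± 0.13. Their 95% intervals ran from -0.31 to 0.26 and from -0.28 to 0.34, so the values are compatible with changes anywhere within those bounds.

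The BH3-only list held 2 falls, no rise and 5 genes that did not pass, with a median of -0.25. Over all lead probes 10.1% were called lower. Bbc3 encodes Puma, a p53 target that binds the pro-survival proteins, and its level was 3.78, 3.94 and 4.05 in the controls and 3.48, 3.43 and 3.29 with phenobarbital. Its groups were apart, with control replicate 1 the nearest to the phenobarbital arrays. Bbc3 fell by 0.52 ± 0.12 on the log2 scale, to 69.7% of the control level (limma, adjusted p = 0.0358). Bmf, a BH3-only protein linked to death after loss of anchorage, had a level of 0.56, 0.95 and 0.68 in the controls and 0.25, 0.12 and 0.25 with phenobarbital. It too had groups that did not overlap, and it fell by 0.53 ± 0.13, to 69.4% of the control level (limma, adjusted p = 0.0448). Within slide 1 the differences were -0.38 for Bbc3 and -0.36 for Bmf, with adjusted p-values of 0.262 and 0.268 for the slide as a block. Each passed under 8 of 22 other settings. Neither passed with any 1 of the 6 arrays left out (adjusted p 0.0502 to 0.0987 for Bbc3 and 0.0535 to 0.130 for Bmf).

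Bik, a BH3-only protein of the endoplasmic reticulum, lay highest of the 36 lead probes at 1.33 ± 0.44 on the log2 scale, and did not pass (adjusted p = 0.0850). Its level was -3.72, -5.38 and -3.94 in the controls and -2.78, -2.91 and -3.35 with phenobarbital. The groups did not overlap, and control replicate 2 lay far below the other controls. Without that array the log2 fold change was 0.82 and passed (limma, adjusted p = 0.0433). With any other array left out Bik did not pass (adjusted p up to 0.203), and the difference within slide 1 was 0.70. Bid, which links caspase-8 to the mitochondria, had narrow groups at 0.50, 0.51 and 0.51 against 0.76, 0.71 and 0.72, and did not pass (0.22 ± 0.09, adjusted p = 0.142). Bcl2l11, which encodes Bim, had -0.39 ± 0.19, and Pmaip1, which encodes the p53 target Noxa, -0.25 ± 0.32. The lead probe of Bad, a sensor of growth factor signalling, had -0.10 ± 0.14 and its dimmer probe a 95% interval of 0.20 to 1.80, and neither passed (adjusted p = 0.632 and 0.0866).

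Neither pore-forming effector passed, where 16.1% of all lead probes were called. The level of Bax, also a p53 target, was 3.24, 3.83 and 3.66 in the controls and 3.31, 3.25 and 2.94 with phenobarbital (log2 fold change -0.41 ± 0.19, adjusted p = 0.176). Control replicate 1 lay inside the range of the phenobarbital arrays. Bak1 was at 2.76, 2.84 and 2.57 against 2.61, 2.86 and 2.84, with overlapping groups (0.05 ± 0.13, 95% interval -0.26 to 0.36).

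None of the 4 pro-survival genes passed, where 16.1% of all lead probes were called. Bcl2l1, which encodes Bcl-xL, a survival protein of young neurons, had a level of 5.39, 5.22 and 5.59 in the controls and 5.24, 5.27 and 4.89 with phenobarbital. The groups overlapped (-0.27 ± 0.16, adjusted p = 0.278), and its dimmer probe had 0.51 ± 0.30. Mcl1, a short-lived survival protein needed by neural progenitors, was at 4.95, 4.95 and 5.03 against 4.69, 4.73 and 4.98 (-0.18 ± 0.12, adjusted p = 0.329). Phenobarbital replicate 3 reached the controls on that probe, while on the dimmer probe, at -0.26 ± 0.10, the groups did not overlap. Bcl2l2, which encodes Bcl-w, had -0.17 ± 0.11 and -0.36 ± 0.17 on its probes, and Bcl2 itself 0.38 ± 0.28.

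The genes of the apoptosome and of proteins released from mitochondria had no call by lead probe and 2 calls by dimmer probes, in opposite directions. Of all lead probes 16.1% were called, and of all probes 16.2%. The lead probe of Diablo, whose product Smac neutralises inhibitors of apoptosis, was at 2.46, 2.50 and 2.44 in the controls and 2.52, 2.59 and 2.62 with phenobarbital (0.11 ± 0.10, adjusted p = 0.436). Its dimmer probe was at -3.52, -3.70 and -3.55 against -1.70, -1.68 and -1.55, with a wide gap between the groups. That signal rose by 1.94 ± 0.11, or 3.85-fold (limma, adjusted p = 0.00183), and passed under all 20 other settings that tested it. Both probes are listed under 1 accession, yet their log2 fold changes lay 1.83 apart, the widest distance among the 9 genes with several tested probes.

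Cycs encodes cytochrome c and was read by 3 probes, all with a negative log2 fold change. The brightest was at 5.93, 5.88 and 6.06 in the controls and 5.71, 5.81 and 5.25 with phenobarbital (-0.37 ± 0.17, adjusted p = 0.176), and the second had -0.28 ± 0.14. The dimmest was at -3.94, -4.18 and -4.12 against -4.92, -4.47 and -4.91, and it fell by 0.68 ± 0.16 (limma, adjusted p = 0.0366). That call held under 8 of 20 other settings. It ended without control replicate 1 (adjusted p = 0.116), control replicate 3 (0.0813), phenobarbital replicate 1 (0.117) or phenobarbital replicate 3 (0.0964). Whether processed copies of Cycs in the genome share signal with these probes was not tested, and its values are uncertain to that extent. Casp9, the initiator caspase of the apoptosome, was at 2.999, 2.71 and 2.86 in the controls and 2.56, 2.45 and 2.33 with phenobarbital. Its groups did not overlap and it did not pass (-0.41 ± 0.13, adjusted p = 0.0704). Without control replicate 2 it did (-0.48, limma, adjusted p = 0.0486), but with any other array left out it did not (adjusted p up to 0.201). Apaf1, the scaffold of the apoptosome, had 0.09 ± 0.19.

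**Figure D2:**
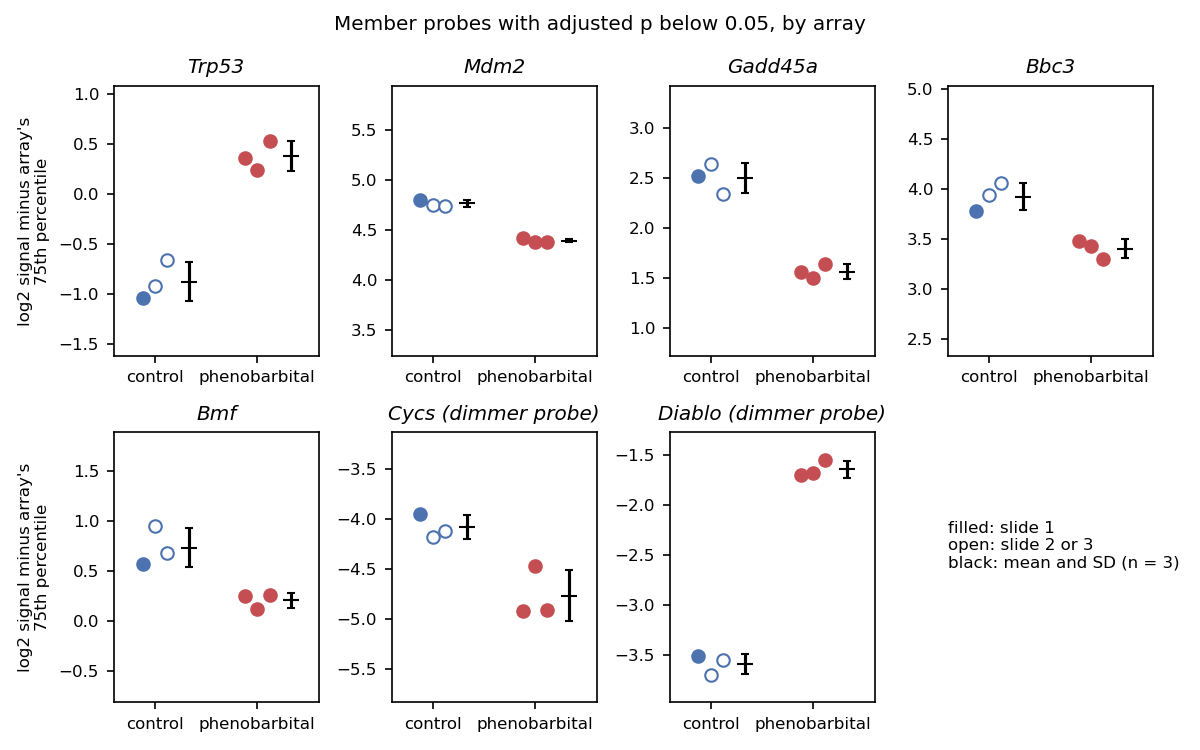
Level (log2 signal minus the array's 75th percentile) on each array for the 7 member probes with an adjusted p below 0.05, all panels spanning the same number of log2 units. Points are arrays, filled for slide 1 and open for slides 2 and 3, and black marks give the mean and SD (n = 3 per group); no panel has overlapping groups, and Diablo's dimmer probe has the widest gap.

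**Figure D3:**
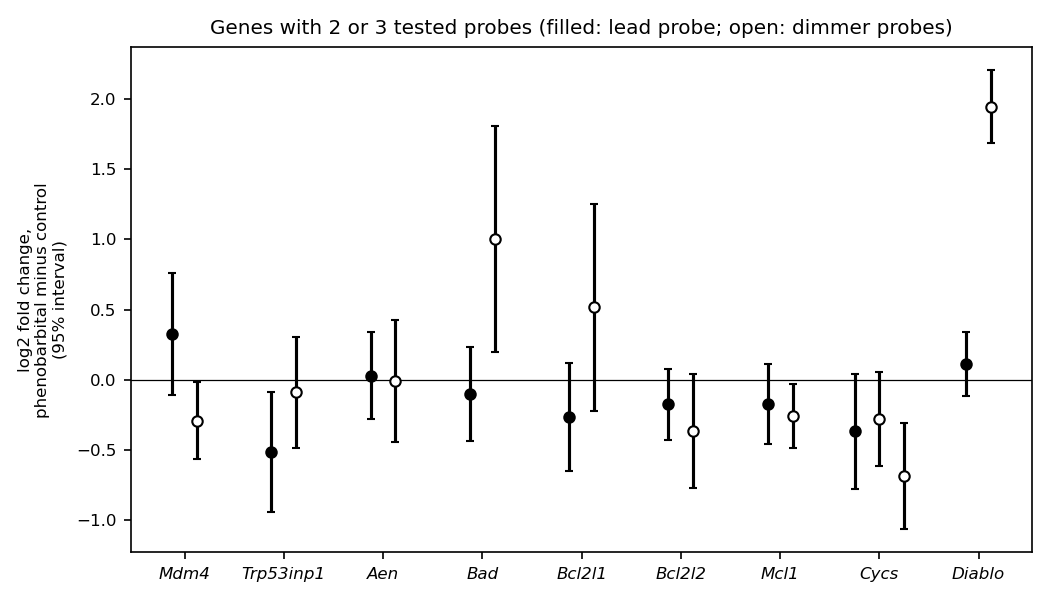
Log2 fold change (phenobarbital minus control, n = 3 arrays per group) of each probe of the 9 genes with 2 or 3 tested probes, with 95% intervals; filled points are lead probes and open points dimmer probes. The probes of Mdm4, Aen, Bad and Bcl2l1 differ in sign, and those of Cycs and Diablo differ in call.

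Casp2, a caspase activated through Pidd1, was at 4.19, 4.20 and 4.11 in the controls and 3.83, 3.87 and 3.68 with phenobarbital. The groups were apart by more than the range within either, and the adjusted p of 0.0576 missed the threshold (log2 fold change -0.37 ± 0.10). Casp6, an executioner caspase that cleaves lamins, was at 1.86, 2.20 and 1.80 against 1.75, 1.96 and 1.78 and overlapped (-0.12 ± 0.14). Xiap, a direct inhibitor of caspases, was at 2.77, 2.43 and 2.82 against 2.85, 2.65 and 2.34, also with overlap (-0.06 ± 0.18). Birc2, which encodes the ubiquitin ligase cIAP1, was at -0.20, -0.21 and -0.15 against -0.48, -0.64 and -0.27. Its groups did not overlap, and it did not pass (-0.28 ± 0.12, adjusted p = 0.168).

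In the death receptor arm none of 3 genes passed, where 16.1% of all lead probes were called. The receptor gene Fas, also a p53 target, had -0.55 ± 0.22, with levels of -3.47, -2.80 and -3.52 in the controls and -3.69, -4.00 and -3.74 with phenobarbital. Casp8, the initiator caspase of this arm, was at -2.26, -1.92 and -2.18 against -1.52, -1.79 and -0.89 (0.72 ± 0.24, adjusted p = 0.0887). Its phenobarbital arrays all lay above the controls, replicate 2 by little. The adaptor gene Fadd was at 0.33, 0.06 and 0.12 against 0.15, 0.18 and 0.16, with overlap (-0.01 ± 0.11, 95% interval -0.28 to 0.26).

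Other genes of these pathways were counted beside the members. Of 53 such genes 51 were tested by lead probe, and 5 rose, 4 fell and 42 did not pass (17.6% called, against 16.1% of all lead probes), with a median of -0.10. Among 21 tested p53 targets that are no members, 3 rose and 2 fell (23.8% called). Ei24, a protein of the endoplasmic reticulum, rose by 1.06 ± 0.17 (limma, adjusted p = 0.0140), Pidd1, the activator of Casp2, by 0.76 ± 0.12 (0.0145), and the DNA repair gene Xpc by 0.50 ± 0.11 (0.0312). Sesn2, a relative of Sesn1, fell by 0.62 ± 0.15 (0.0405) and the kinase gene Plk2 by 0.46 ± 0.11 (0.0416). None of these 5 calls held with the slide as a block, where the adjusted p was 0.113 for Ei24, 0.0667 for Pidd1, 0.230 for Xpc, 0.189 for Sesn2 and 0.203 for Plk2. Cdkn1a, which encodes the cell cycle inhibitor p21, had -0.55 ± 0.19 (adjusted p = 0.0933) on its lead probe and 0.77 ± 0.29 on its dimmer one.

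Of 12 relatives, kinases and cofactors of p53, 1 was called (8.33%, against 16.1% of all lead probes). Chek2, a DNA damage checkpoint kinase, rose and 11 did not pass. Its level was -4.44, -4.29 and -5.07 in the controls and -2.62, -2.80 and -2.39 with phenobarbital, a rise of 2.00 ± 0.23 (limma, adjusted p = 0.00601), and it passed with the slide as a block (0.0296). Among 18 tested genes of other apoptosis functions, Parp1, a DNA break sensor cleaved by caspases, rose by 0.95 ± 0.13 (0.0104). Birc6 fell by 0.45 ± 0.11 (0.0441) and Bnip3l, a mitophagy receptor, by 0.38 ± 0.10 (0.0487), and 15 did not pass. The called share of the 18 was 16.7%. These 3 calls ended with the slide as a block (adjusted p = 0.0643 for Parp1, 0.235 for Birc6 and 0.228 for Bnip3l).

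Lead and dimmer probes also differed in call within that list. While the lead probe of Bnip3l fell, its dimmer probes had -0.35 ± 0.10, -0.28 ± 0.10 and -0.31 ± 0.12 and did not pass (limma, adjusted p = 0.0615, 0.104 and 0.125). In 3 other genes of the list, singled out after their values were seen, a dimmer probe rose and the lead probe did not pass. Unlike those of Diablo, the dimmer probes that rose are listed under another RefSeq accession than the lead probe. Dffa, the inhibitor of the apoptotic nuclease, had a dimmer probe that rose by 1.89 ± 0.19 and a lead probe at 0.04 ± 0.15, while a dimmer probe under the lead's accession had 0.91 ± 0.39 and did not pass (adjusted p = 0.152). Cflar, which encodes the caspase-8 inhibitor FLIP, had dimmer probes that rose by 1.32 ± 0.14 and 0.96 ± 0.11 and a lead probe at 0.02 ± 0.09. Birc5, which encodes survivin, had a dimmer probe that rose by 0.95 ± 0.13 and a lead probe at -0.39 ± 0.14, while a dimmer probe under the lead's accession had 0.29 ± 0.14 and did not pass (adjusted p = 0.200). With the slide as a block the rising probes had adjusted p-values of 0.0378 for Dffa, 0.0451 and 0.0506 for Cflar and 0.0638 for Birc5.

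**Figure D4:**
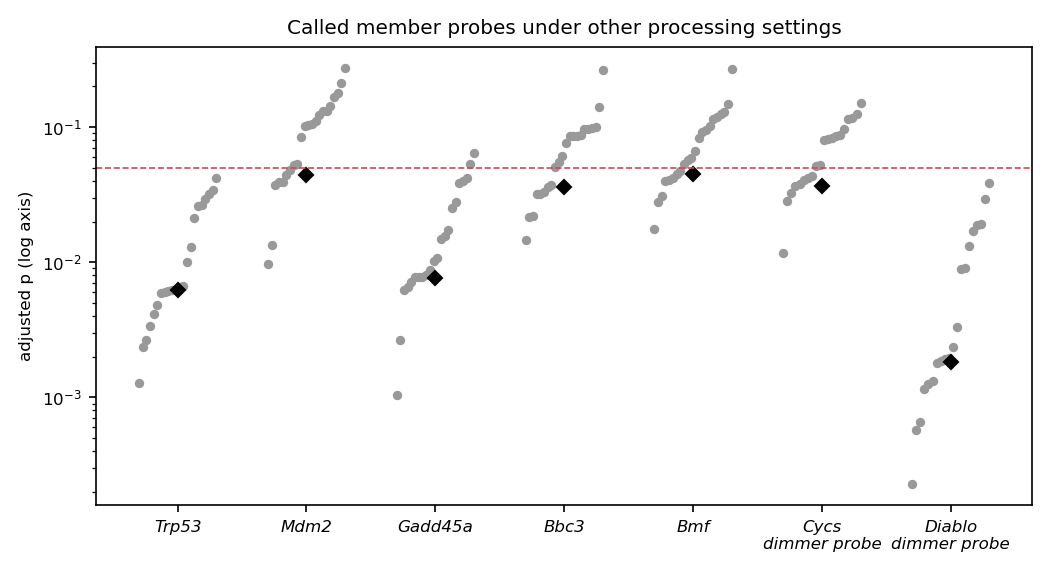
Adjusted p (log axis) of the 7 called member probes in the fit reported here (black diamonds) and under each other setting (grey points, ordered by value), with the dashed line at 0.05. All points of Trp53 and of Diablo's dimmer probe lie below the line, 2 of Gadd45a lie above it, and Mdm2, Bbc3, Bmf and Cycs have more points above it than below.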

How the data were processed

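RNA of 3 control and 3 phenobarbital samples was hybridised with Cy3 to Agilent arrays of 62976 spots, 59305 of them non-control. The authors deposited scanner intensity values already processed by Feature Extraction 10.7.3.1 per the file headers (10.7 per the submitters' processing notes). From these, log2 processed signal minus the 75th percentile of each array was computed here; outlier spots (98 to 198 per array) were set missing and spots of a probe averaged. Between 62.8% and 68.7% of spots were well above background, none was saturated, and no pair of arrays had more than 1 spot of equal signal. Precision is limited by the number of arrays. The test took probes that all arrays of 1 or both groups measured well above background, with at least 2 values per group. It was run with limma 3.58.1 in R 4.3.3, with p-values adjusted over all 34673. Names came from RefSeq accessions, which matched 26582 probes and left 29099 unnamed.

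The members and lists were chosen with earlier results of these data known. Values on every array are given for members with a called probe, for the 2 of highest mean signal in each role list with none, and for others singled out by their values; of other pathway genes, up to 8 called per list are named. Alternatives covered background correction (normexp, offset 50, on the median signals), scaling, filters, outlier spots, probe choice, variance prior, array weights, replicate and slide blocks, leaving out each array, and the authors' deposited log2 value table. Differences between arrays in that table matched those of the scanner signals within 2.04e-06 for 99% of probes, but its centring is unknown; its column medians were 0.08, 0.10 and 0.09 for controls and -0.02, -0.09 and -0.08 for phenobarbital. The fit was checked on simulated data.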

Additional observations from a re-analysis of the deposited data

How the results depend on the processing

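The calls of Trp53 and of Diablo's dimmer probe held under every alternative that tested them. The counts reported, 2 member probes higher and 5 lower, 1 gene higher and 4 lower by lead probe, and 5 other pathway genes higher and 4 lower, did not. The median of the members' lead probes, -0.21, lay -0.060 from that of all probes, -0.15. Lead probes of all names had a median of -0.17, which is nearer to the members. Medians given below are distances of the former kind, from the median of everything tested. Quantile normalization left 1 probe, 1 gene and 1 pathway gene lower, with a median of -0.0037, and scaling to the median left 1, 1 and 1. The percentile over probes above background on all arrays left 1 probe, 1 gene and 0 pathway genes lower; no filter on dim probes left 1, 1 and 0, with a median of -0.011; centring on the all-probe median, added after seeing the data, left 1, 1 and 0. Normexp gave 4 probes and 2 genes higher, 7 probes, 6 genes and 7 pathway genes lower, and a median of 0.080. The mean of a gene's probes gave 2 genes and 8 pathway genes higher, and the trended robust prior 8 pathway genes lower. Over all 25304 names the mean of probes called 1788 higher and 2570 lower, against 1518 and 2546 by lead probe in the fit reported here. Over all 34673 probes the trended prior called 2618 higher and 4485 lower, against 2415 and 3203. Array weights gave 6 probes and 4 genes higher, 11 probes, 8 genes and 13 pathway genes lower, and a median of -0.0032. With the slide as a fixed block 0 probes, 0 genes and 0 pathway genes were lower, 1 pathway gene was higher, and the median was 0.0059; as a random block, with a correlation of 0.323, 2 probes, 1 gene and 0 pathway genes were lower. Leaving out 1 array gave 2 to 4 probes higher and 1 to 3 lower, 1 to 2 genes higher and 1 to 2 lower, 2 to 5 pathway genes higher and 0 to 1 lower, and medians of -0.080 to -0.022. Counts by probe were not computed with the lead probe alone or the mean of probes.

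The labels do not say whether the replicate numbers pair the samples. Deviations of same-numbered arrays from their group means correlated at 0.06, -0.16 and -0.32, which cannot decide it with 3 arrays per group. With the number as a replicate block in limma, Gadd45a had an adjusted p of 0.0641 and Chek2 of 0.0515. In that fit 0 member probes, 0 genes and 0 pathway genes were lower, and 0 pathway genes were higher. It called 523 of all probes higher and 54 lower, against 2415 and 3203 in the fit reported here. Over all probes the slide as a fixed block gave 914 and 180, no filter 1313 and 616, array weights 3969 and 8257, normexp 2352 and 6849, quantile normalization 2476 and 1714, scaling to the median 2282 and 1358, the percentile over detected probes 2517 and 1263, centring 2924 and 859, the random slide block 2097 and 2091, and leaving out 1 array 1027 to 2795 and 305 to 3180.

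Some log2 fold changes changed sign. In the fit reported here these lay between -0.27 (Bcl2l1) and 0.09 (Apaf1). Normexp gave Zmat3 0.022, Bad 0.059 and Xiap 0.028. Quantile normalization gave Zmat3 0.095, Bad 0.082, Mcl1 0.040, Xiap 0.082 and Fadd 0.0027. Scaling to the median gave Zmat3 0.020 and Fadd 0.035, and the percentile over detected probes Zmat3 0.071, Xiap 0.034 and Fadd 0.086. The mean of probes gave Bad 0.45 and Bcl2l1 0.12, array weights Bad 0.041, the authors' table Fadd 0.00057, and the slide block Aen -0.0083 and Bad 0.023. Leaving out 1 array moved Zmat3 from -0.099 to 0.032, Fadd from -0.061 to 0.070, Aen from -0.047 to 0.11, Casp6 from -0.198 to 0.00027, Bak1 from -0.030 to 0.13, Apaf1 from -0.067 to 0.298, Xiap from -0.18 to 0.076 and Bad from -0.16 to 0.013. Except where an alternative tests fewer or other probes or arrays, the cause was not tested.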
